A study of Homo sapiens with 3 samples.

Results

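Complement is a set of blood and tissue proteins that tags cells and debris for removal. Its classical route starts when C1q binds a target and the paired proteases C1R and C1S cut the next components. All routes meet at C3, whose fragments coat the target, and regulators in the fluid and on the cell surface stop the cascade on the host's own cells. In brain, C1q comes mainly from microglia, while astrocytes are known to make other components such as C3. The 9 genes described here are the C1 proteases C1R and C1S, the central component C3, the soluble regulators SERPING1, CFI and CLU, and the membrane regulators CD46, CD55 and CD59. They were taken by name, with all 22 probe sets whose annotation gives a member as the only gene, out of 19775 genes so represented on the array.

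Expression was measured on 3 Affymetrix human arrays of total RNA from H9, an established line of human embryonic stem cells, differentiated in culture after growth on mouse embryonic fibroblasts. The 3 cultures were RA astrocytes at day 210, given retinoic acid from day 10 to day 21, FGF8 astrocytes at day 210, given fibroblast growth factor 8 over the same days, and neuroepithelial cells at day 17, which received neither morphogen. Each group is 1 array of 1 line, so no value has a replicate check, no test was possible, and both astrocyte comparisons share the neuroepithelial array. Astrocytes differ from neuroepithelial cells in age, stage and morphogen at once, and these cannot be told apart. In a culture, fewer cells of a type and less RNA per cell cannot be told apart either.

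Signals are quantile-normalized intensities. Values at or under the median of all probe sets, a signal of 26.4, were treated as at the floor. A difference with one side at the floor is given as a lower bound ("at least"). Genes were called higher or lower from 2-fold, and the levels of different probe sets are not comparable with each other. Markers were read against the labels. All 8 astrocyte markers were above the floor on both astrocyte arrays, with GFAP at 14574 and 3053 in RA and FGF8 astrocytes against a value under the floor in neuroepithelial cells, and LIN28A, a gene of early progenitors, was at the floor on both astrocyte arrays against 3584 in neuroepithelial cells. Of these 8, 5 were above the floor in neuroepithelial cells too. S100B, AQP4 and CD44 were also higher in both astrocyte cultures, but ALDH1L1 and GJA1 were within 2-fold, at 1.20-fold and 1.29-fold in RA and 1.14-fold and 1.15-fold in FGF8 astrocytes. PAX6 had 585 in RA and 506 in FGF8 astrocytes against 1841 in neuroepithelial cells, and SOX1 had 587 and 1517 against 1861. The ratio of 3' to 5' signal is higher for shorter RNA. For ACTB it was 6.67 in RA and 6.63 in FGF8 astrocytes against 1.33 in neuroepithelial cells. For GAPDH the gap was smaller, at 1.79 and 1.65 against 0.98. The spiked-in hybridisation controls were 2.62-fold brighter on the RA array and 1.09-fold on the FGF8 array than on the neuroepithelial array. The part of RNA length in the differences below was not tested. The brightness of the controls was tried as another scaling.

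Complement genes did not move as a block. Against neuroepithelial cells, RA astrocytes had 6 of 9 members higher (C1R, C1S, SERPING1, CFI, CD59 and CLU) and 1 lower (CD55), where 18.1% of 13339 genes compared were higher and 14.6% lower. FGF8 astrocytes had 5 of 8 members higher (C1R, C1S, CFI, CD59 and CLU) and 1 lower (CD55), where 12.8% of 13004 genes were higher and 10.2% lower. RA astrocytes had 4 of 8 members higher than FGF8 astrocytes (C1R, C1S, SERPING1 and CFI) and 0 lower, where 9.69% of 12958 genes were higher and 7.86% lower. That tally depended on the scaling: with the spiked-in hybridisation controls set equal, SERPING1 alone of the 7 members compared was higher in RA than in FGF8 astrocytes, and CD46 and CD59 were lower past 2-fold. On that scale the median log2 difference of 12307 genes compared was -1.18, and 3.64% of the genes called were higher. CD59, at -1.05, lay above that median and CD46, at -1.92, below it. With the main scaling the median log2 difference of the members was 2.67, 1.87 and 0.89 in these comparisons, against 0.07, 0.05 and 0.01 over all genes. C3 was at the floor in FGF8 astrocytes and neuroepithelial cells, and CD55 was at the floor in both astrocyte cultures, so each was left out of 1 comparison.

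**Figure D1:**
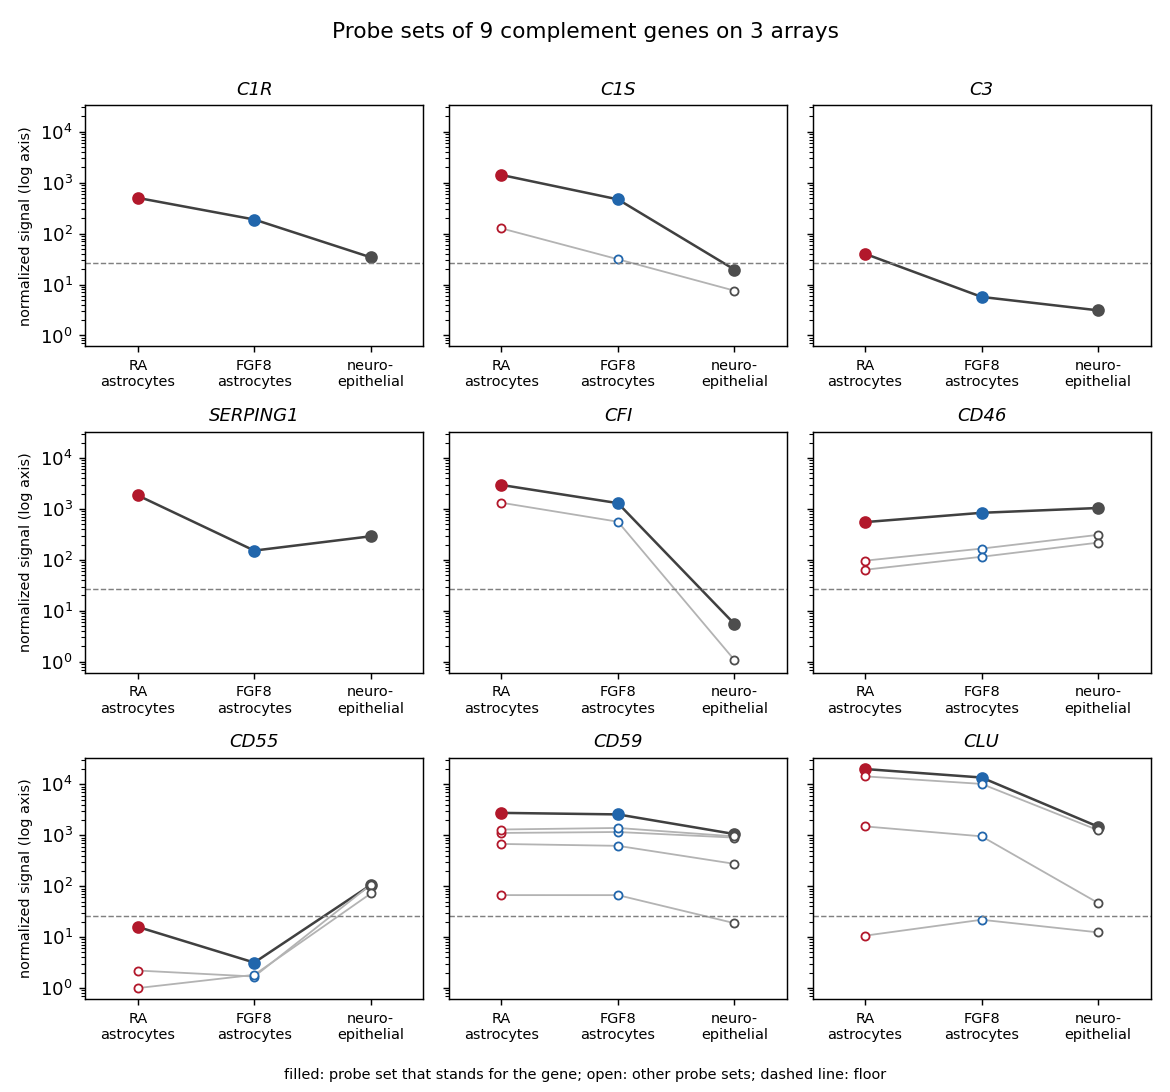
Normalized signal on a log axis of every probe set of the 9 genes on the RA astrocyte, FGF8 astrocyte and neuroepithelial arrays, 1 point per array, with lines joining the points of a probe set and a dashed line at the floor of 26.4. CFI and CLU stand high on both astrocyte arrays, SERPING1 stands high on the RA array, and CD55 is above the floor in neuroepithelial cells alone.

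Promoter sequence was at hand for 5 of the 9 genes. It held 4 windows for CD59, 2 each for C1R and CD46 and 1 each for CFI and CD55. Only the window whose start is the outer end of the gene was used, and the others were not searched. The 250 bases before the start of C1R and CFI, which were higher on both astrocyte arrays, and of CD55, which was lower on both, are shown so that the opposite movers can be read side by side (RefSeq, GRCh38.p14, gene strand, 5' to 3'). C1R lies at chr12:7092446-7092695 on the minus strand, CFI at chr4:109802000-109802249 on the minus strand and CD55 at chr1:207321428-207321677 on the plus strand. Capitals mark letters that match one of 4 searched motifs.
C1R: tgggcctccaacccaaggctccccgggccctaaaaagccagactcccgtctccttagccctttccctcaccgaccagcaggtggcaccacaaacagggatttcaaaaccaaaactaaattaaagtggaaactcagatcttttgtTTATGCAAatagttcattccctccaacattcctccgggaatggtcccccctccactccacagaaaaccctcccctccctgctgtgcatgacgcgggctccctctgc
CFI: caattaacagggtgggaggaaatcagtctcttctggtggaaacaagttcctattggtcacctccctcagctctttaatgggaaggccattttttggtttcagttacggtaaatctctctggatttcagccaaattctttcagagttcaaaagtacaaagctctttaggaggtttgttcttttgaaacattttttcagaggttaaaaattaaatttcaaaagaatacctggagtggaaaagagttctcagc
CD55: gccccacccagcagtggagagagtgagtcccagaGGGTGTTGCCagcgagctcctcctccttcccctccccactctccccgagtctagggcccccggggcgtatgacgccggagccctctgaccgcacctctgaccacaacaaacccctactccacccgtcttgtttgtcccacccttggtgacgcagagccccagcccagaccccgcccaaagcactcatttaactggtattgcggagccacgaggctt
The motifs, read on both strands, were TTCNNNGAA (bound by STAT factors), GAAA, any 2 bases and GAAA (interferon response), GGG, any 5 bases and CC (NF-kB) and TTGNNNAA (C/EBP). The C1R window held the C/EBP letters once, as TTATGCAA starting 106 bases before the start, which 30.2% of 35116 windows of this length hold. The CFI window held none of the 4. The CD55 window held the NF-kB letters once, 216 bases before the start, as do 54.4% of windows. Of the windows not shown, that of CD59, also higher on both astrocyte arrays, held the STAT letters once, as TTCTCAGAA starting 128 bases before the start, as do 6.57% of windows, and that of CD46 held the NF-kB letters 3 times, at 101, 100 and 52 bases, of which the first 2 overlap. GC content was 54.0% in the C1R window, 38.0% in the CFI window and 64.0% in the CD55 window, against a median of 58.0% over all windows. The CFI window had 1 CG pair, the C1R window 6 and the CD55 window 12, against a median of 11. A match describes letters only.

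The C1 proteases were higher in both astrocyte cultures. C1R, the protease that activates C1S, had a signal of 502 in RA astrocytes and 189 in FGF8 astrocytes, against 34.2 in neuroepithelial cells. The neuroepithelial value lay just above the floor, so the 14.7-fold difference in RA and the 5.52-fold difference in FGF8 astrocytes are close to bounds. With the floor at the 70th percentile the FGF8 bound was 0.98 on the log2 scale and that call was lost. C1R ranked 83rd from the top of 10689 genes measured on both arrays in the RA comparison and 198th of 10787 in the FGF8 comparison.

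C1S, the protease that cleaves C4 and C2, had a signal of 1415 in RA astrocytes and 469 in FGF8 astrocytes, and 19.7 in neuroepithelial cells, which is under the floor. It was at least 53.7-fold higher in RA and at least 17.8-fold higher in FGF8 astrocytes. A second C1S probe set was dimmer, with 127 in RA astrocytes, 31.3 in FGF8 astrocytes and 7.57 in neuroepithelial cells. It passed 2-fold in RA, at least 4.80-fold higher, but in FGF8 astrocytes its bound was 1.19-fold, so the FGF8 call rests on the brighter probe set. Both probe sets put RA above FGF8 astrocytes, by 3.02-fold and 4.04-fold, and C1R did so by 2.66-fold.

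C1S, C1R and C1RL, a C1R-like protease gene, follow each other on chromosome 12 with no other protein-coding gene between them in the reference gene table. C1RL, which was no member, had a signal of 622 in RA and 215 in FGF8 astrocytes, against 106 in neuroepithelial cells. It was 5.84-fold and 2.02-fold higher, so the FGF8 difference of C1RL only just passed 2-fold. The neighbours shared the order RA, FGF8, neuroepithelial. That order was not particular to them, as CFI on chromosome 4 and CLU on chromosome 8 had it too.

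C3, the component on which all routes converge, was near or under the floor on every array. Its only probe set had a signal of 40.1 in RA astrocytes, 5.71 in FGF8 astrocytes and 3.11 in neuroepithelial cells. RA astrocytes were above the floor and the others were not, which gave a bound of at least 1.52-fold against either and no call. Without a floor the RA value was 3.69 higher than neuroepithelial cells on the log2 scale, but that rests on signals of a few units. With the floor at the 30th percentile, a signal of 9.51, RA astrocytes were higher than both other cultures by at least 2.08 on the log2 scale, past 2-fold, so whether C3 was called depended on the floor.

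The soluble regulators did not share a pattern. CFI, the protease that inactivates C3b and C4b, had the largest bound of the 9 genes in both astrocyte comparisons. Its signal was 2954 in RA astrocytes and 1299 in FGF8 astrocytes, against 5.52 in neuroepithelial cells, where it was at the floor. It was at least 112-fold higher in RA and at least 49.3-fold higher in FGF8 astrocytes. Its second probe set gave 1323 in RA astrocytes, 561 in FGF8 astrocytes and 1.08 in neuroepithelial cells, at least 50.2-fold and at least 21.3-fold higher. RA astrocytes were above FGF8 astrocytes by 2.27-fold and 2.36-fold on the 2 probe sets.

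CLU, clusterin, a secreted chaperone that binds the terminal complement complex, had a signal of 19943 in RA astrocytes and 13590 in FGF8 astrocytes, against 1474 in neuroepithelial cells. It was present in all 3 cultures, and was 13.5-fold higher in RA and 9.22-fold higher in FGF8 astrocytes. A further probe set gave 14308 in RA and 10177 in FGF8 astrocytes against 1256 in neuroepithelial cells, 11.4-fold and 8.10-fold higher. Another gave 1491 and 952 against 46.9, which is 31.8-fold and 20.3-fold higher, and the fourth was at the floor on all 3 arrays. Between RA and FGF8 astrocytes CLU differed by 0.55 on the log2 scale, within 2-fold, but by 1.22 when no further scaling was applied and 1.17 when the array medians were equalised, so the call depended on the scaling.

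SERPING1, the C1 inhibitor that blocks C1R and C1S, separated the astrocyte cultures. Its only probe set had a signal of 1847 in RA astrocytes and 152 in FGF8 astrocytes, against 291 in neuroepithelial cells. RA astrocytes were 6.35-fold higher than neuroepithelial cells, whereas FGF8 astrocytes lay below them, at a log2 difference of -0.93 that missed 2-fold. With the hybridisation controls set equal the FGF8 minus neuroepithelial difference was -1.09, past 2-fold, so that call depended on the scaling. RA astrocytes were 12.1-fold higher than FGF8 astrocytes. That difference, 3.60 on the log2 scale, ranked 36th of 10969 genes measured on both astrocyte arrays, and was the largest of the 8 members compared.

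The soluble inhibitor and its target proteases thus had unlike patterns in FGF8 astrocytes. There C1R and C1S were higher than in neuroepithelial cells, by 2.47 and at least 4.15 on the log2 scale, while SERPING1 was at -0.93. In RA astrocytes all 3 genes were higher, by 3.88, at least 5.75 and 2.67.

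**Figure D2:**
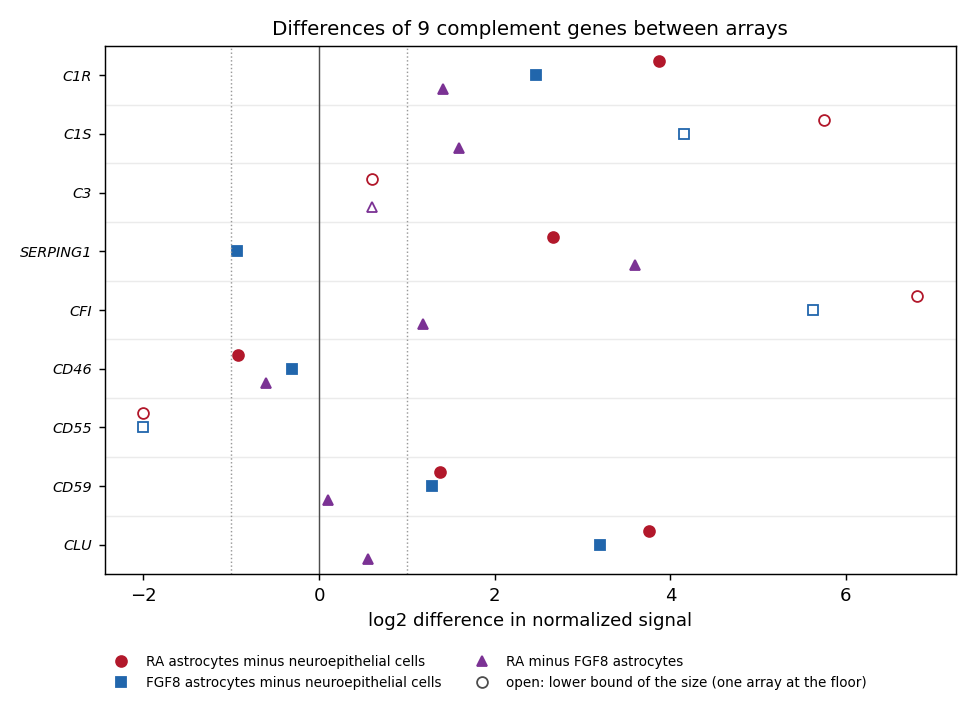
Log2 difference in normalized signal for each of the 9 genes in RA astrocytes minus neuroepithelial cells (circles), FGF8 astrocytes minus neuroepithelial cells (squares) and RA minus FGF8 astrocytes (triangles), with dotted lines at 2-fold and open symbols for lower bounds. SERPING1 lies at 2.67 in RA and -0.93 in FGF8 astrocytes, while CD55 lies at or beyond -2.00 in both.

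The 3 membrane regulators went different ways. CD55, which speeds the decay of the C3 and C5 convertases, had a signal of 15.9 in RA astrocytes and 3.16 in FGF8 astrocytes, both under the floor, against 106 in neuroepithelial cells. All 3 of its probe sets showed this. The others had at most 2.21 in RA astrocytes and 1.82 in FGF8 astrocytes, against 107 and 71.8 in neuroepithelial cells. CD55 was at least 4.001-fold lower in both astrocyte cultures on its main probe set, and the bounds of the others were 4.05-fold and 2.72-fold. With the floor at the 70th percentile, a signal of 95.4, the bound shrank to -0.14 on the log2 scale and the call was lost.

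CD46, the cofactor with which CFI cleaves C3b on the cell surface, had a signal of 551 in RA astrocytes and 840 in FGF8 astrocytes, against 1043 in neuroepithelial cells. Its log2 differences of -0.92 in RA and -0.31 in FGF8 astrocytes were within 2-fold. A probe set of the cross-hybridising type gave 96.5 in RA and 166 in FGF8 astrocytes against 310 in neuroepithelial cells, and the third gave 64.0 and 115 against 218. Both of these were lower past 2-fold in RA astrocytes, by 3.21-fold and 3.40-fold, and within 2-fold in FGF8 astrocytes. All 3 probe sets had the order neuroepithelial, FGF8, RA from high to low, so CD46 was lower in RA astrocytes in direction while its size depended on the probe set. With array medians set equal its FGF8 difference was 0.27. The RA minus neuroepithelial difference passed 2-fold at -1.46 when its probe sets were averaged and at -2.23 with the hybridisation controls set equal, where RA minus FGF8 was -1.92. With the controls set equal the medians of all genes were -1.15 and -1.18 in these comparisons.

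CD59, the membrane protein that blocks assembly of the membrane attack complex, had a signal of 2747 in RA astrocytes and 2564 in FGF8 astrocytes, against 1055 in neuroepithelial cells. It was 2.60-fold and 2.43-fold higher. Of its 5 probe sets, 3 passed 2-fold in both astrocyte cultures and the other 2 did not, with log2 differences of 0.30 and 0.45 in RA and 0.37 and 0.55 in FGF8 astrocytes. Between RA and FGF8 astrocytes the log2 differences of CD59 lay between -0.10 and 0.12 over the 5 probe sets. With the hybridisation controls set equal the RA minus FGF8 difference was -1.05, and the RA minus neuroepithelial difference was 0.18 and no longer called. Both lay above the medians of all genes on that scale, -1.18 and -1.15.

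CD55 and CD46 belong to a row of regulator genes on chromosome 1, where C4BPB, C4BPA, CD55, CR2, CR1, CR1L and CD46 follow in this order. Both had their highest signal in neuroepithelial cells. C4BPB, C4BPA, CR2 and CR1, which encode the chains of the C4b-binding protein and the complement receptors, were at the floor on all 3 arrays.

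Patterns over the 3 arrays were compared as the Euclidean distance between log2 signals after subtracting each gene's mean, over 13737 other genes above the floor on at least 1 array. With 3 arrays this orders genes loosely, and values under the floor were set to it, so genes under it on the same array come out near each other. That holds in neuroepithelial cells for CFI, C1S, BBOX1, NFIX, S100B, TMOD1 and SMIM29. For CFI the nearest were BBOX1 at 0.14, NFIX at 0.27 and S100B at 0.37, and C1S was the nearest member, ranked 16th at 1.07. For C1S they were TMOD1 at 0.12, C1QL1 at 0.22 and MAOB at 0.25. For C1R they were SMIM29 at 0.11, CBR1 at 0.13 and FAM20C at 0.14, with CLU, the nearest member, ranked 97th at 0.66. For CLU they were THBS2 at 0.06, TSPO at 0.12 and TFPI at 0.13. For SERPING1 they were OPCML at 0.12, EGF at 0.17 and APOBEC3C at 0.18, and the nearest member was C3, ranked 2029th at 2.17. For CD55, at the floor on both astrocyte arrays, EGFL6, CNTN6 and POU5F1B were nearest, all within 0.01, as are other genes at the floor on the same arrays.

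Most of the remaining cascade was at the floor. Of 53 other complement genes listed, 46 had a probe set of their own, 33 of these were at the floor on all 3 arrays and 13 were above it on at least 1. The C1q chains C1QA, C1QB and C1QC, which recognise the target for C1R and C1S, and C2, which C1S cleaves, were all at the floor, as were the C3a and C5a receptors C3AR1 and C5AR1. Of the terminal genes only C5 was above the floor on all 3 arrays, with 67.4 in RA astrocytes, 85.2 in FGF8 astrocytes and 86.7 in neuroepithelial cells, and C6 was just above it in RA astrocytes at 30.1. CFB, the protease of the alternative route, had 36.7 in RA and 49.8 in FGF8 astrocytes and was at the floor in neuroepithelial cells, so that its bounds of at least 1.39-fold and at least 1.89-fold gave no call. Genes without a probe set of their own were not analysed here.

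Of these other genes, RA astrocytes had 5 higher and 1 lower of 12 compared with neuroepithelial cells (median 0.47), and FGF8 astrocytes 4 higher and 1 lower of 9 (median 0.92). RA astrocytes had 4 higher and 0 lower of 12 against FGF8 astrocytes (median 0.17). These counts were not repeated with the hybridisation controls set equal, where the median of all genes was -1.18 in RA minus FGF8 astrocytes. Over all genes 18.1% were higher and 14.6% lower in the RA comparison with neuroepithelial cells, and 12.8% and 10.2% in the FGF8 one. Between RA and FGF8 astrocytes the shares were 9.69% and 7.86%. The medians over all genes were 0.07, 0.05 and 0.01. MASP1, CSMD1 and CSMD3 were at the floor in neuroepithelial cells, so they were compared with these only because an astrocyte array was above it. Between the astrocyte cultures, CSMD3, C6, MASP2 and CD93 were compared only because the RA array was above the floor, and ITGAM only because the FGF8 array was. MASP1, a protease of the lectin route, had 219 in RA and 72.4 in FGF8 astrocytes and was under the floor at 19.4 in neuroepithelial cells. It was at least 8.30-fold and at least 2.75-fold higher, and 3.02-fold higher in RA than in FGF8 astrocytes, the order seen for C1R and C1S.

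Among membrane genes, CSMD1, an inhibitor of the classical route, had 106 in RA and 97.4 in FGF8 astrocytes against 7.85 in neuroepithelial cells. It was at least 4.005-fold and at least 3.69-fold higher. Its relative CSMD2 had 492 in RA and 85.3 in FGF8 astrocytes against 34.2, which is 14.4-fold and 2.50-fold higher. CSMD3 was above the floor in RA astrocytes alone, with 78.8, at least 2.99-fold higher than in FGF8 astrocytes. COLEC12, a scavenger receptor of the collectin family, was at the floor on both astrocyte arrays and had 265 in neuroepithelial cells, a difference of at least 10.1-fold. It was the only one of the 46 called lower in either astrocyte culture.

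**Figure D3:**
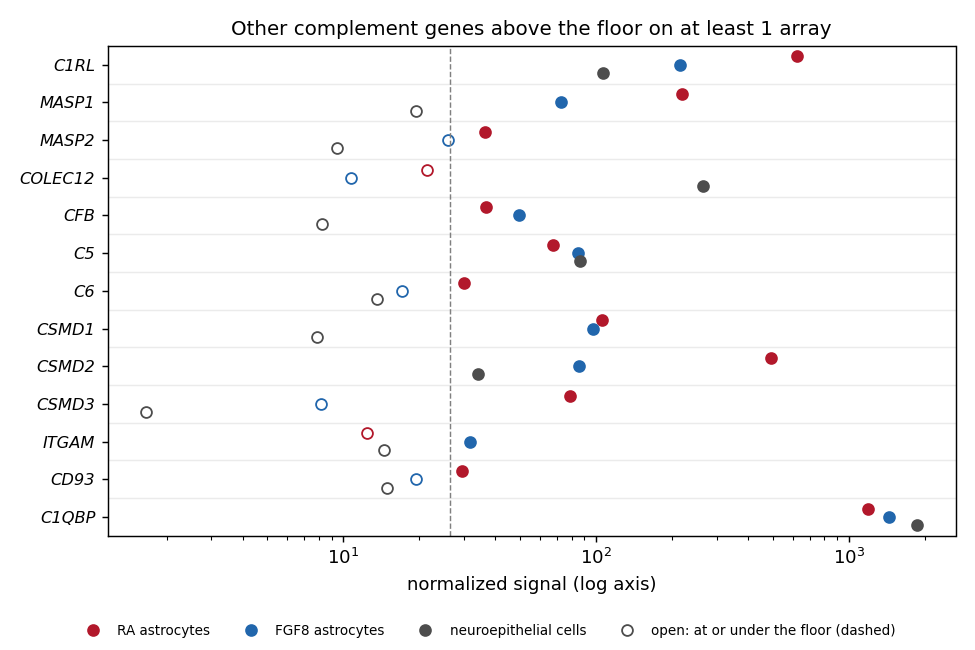
Normalized signal on a log axis of the 13 other complement genes above the floor on at least 1 array, with 1 point each for RA astrocytes, FGF8 astrocytes and neuroepithelial cells, compared within a row only. Open points are at or under the floor of 26.4, which is where MASP1 and CSMD1 lie in neuroepithelial cells and COLEC12 lies in both astrocyte cultures.

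Markers of other cell types were counted on each array. Of 5 endothelium markers, 1 was above the floor in RA astrocytes, 2 in FGF8 astrocytes and 2 in neuroepithelial cells. CLDN5 had 114, 48.1 and 2.57, while PECAM1 and KDR were highest in neuroepithelial cells. Of 5 choroid plexus markers, 1, 1 and 3 were above the floor. AQP1 had 157, 34.7 and 67.7, the order of SERPING1, while TTR and KCNJ13 were at the floor on both astrocyte arrays. The part of these markers in the complement differences was not tested. Of 9 microglia and macrophage markers measured, 1 was above the floor in RA astrocytes (CSF1R, at 31.2), 0 in FGF8 astrocytes and 0 in neuroepithelial cells, with summed signals of 101, 49.4 and 56.3. AIF1, PTPRC, TREM2, TYROBP, SPI1 and C1QA were at the floor on all 3 arrays. Of 6 endoderm and liver markers, 1 was above the floor on each astrocyte array and 4 in neuroepithelial cells, with summed signals of 71.8 and 87.1 against 2735, and ALB and APOA1 were at the floor on every array. Of 6 fibroblast markers, 1 was above the floor in RA astrocytes, 2 in FGF8 astrocytes and 6 in neuroepithelial cells, with summed signals of 90.8, 449 and 9022. Fibroblast and endoderm markers were thus highest on the array where CD55, CD46 and COLEC12 were highest, and their part in those values was not tested. Of 5 neuron markers, 4 were above the floor in RA astrocytes, 3 in FGF8 astrocytes and 5 in neuroepithelial cells, with summed signals of 3716, 7767 and 5051. Between the astrocyte cultures they went both ways. DCX was 11.6-fold lower in RA than in FGF8 astrocytes, while SYT1 was 5.09-fold and STMN2 at least 5.79-fold higher. The part of neuron markers in the RA over FGF8 differences of the complement genes was not tested.

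Cytokines such as interferon gamma are known to raise complement genes in many cells, so genes of cytokine and steroid receptors and of transcription factors were listed as well. Of 23 such genes, 21 had a probe set of their own. In RA astrocytes 12 of 19 compared were higher than in neuroepithelial cells and 0 lower (median 1.67). Over all genes 18.1% were higher and 14.6% lower. In FGF8 astrocytes 12 of 20 were higher and 2 lower (median 1.32), where the shares over all genes were 12.8% and 10.2%. Both IL6R and IL1R1 were under the floor in neuroepithelial cells, at 19.0 and 23.0. IL6R was thus compared with these, and counted as higher, only because both astrocyte arrays were above the floor. For IL1R1 that held for the FGF8 array alone. OSMR, the receptor for oncostatin M, had 1690 in RA and 1911 in FGF8 astrocytes against 43.2 in neuroepithelial cells, 39.2-fold and 44.3-fold higher. The factor CEBPD had 2434 and 1747 against 76.3, which is 31.9-fold and 22.9-fold higher. IRF9, part of the interferon-activated complex, had 742 and 427 against 44.5, which is 16.7-fold and 9.61-fold higher.

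Between the astrocyte cultures 1 gene of this list was higher in RA and 1 lower, of 20 compared (median 0.17), where 17.5% of all genes were called either way, against 32.7% and 23.1% in the RA and FGF8 comparisons with neuroepithelial cells. The higher gene was CEBPB, a factor of the acute-phase response, with 1203 in RA and 161 in FGF8 astrocytes, against 324 in neuroepithelial cells. It was 3.72-fold higher in RA and 2.02-fold lower in FGF8 astrocytes than in neuroepithelial cells, and 7.49-fold higher in RA than in FGF8 astrocytes, so its order over the arrays was that of SERPING1. The FGF8 difference of CEBPB from neuroepithelial cells only just passed 2-fold. IL1R1, the interleukin 1 receptor, was at least 2.40-fold lower in RA than in FGF8 astrocytes, and NFKB2 was lower in FGF8 astrocytes than in neuroepithelial cells by a bound at the edge of the call.

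**Figure D4:**
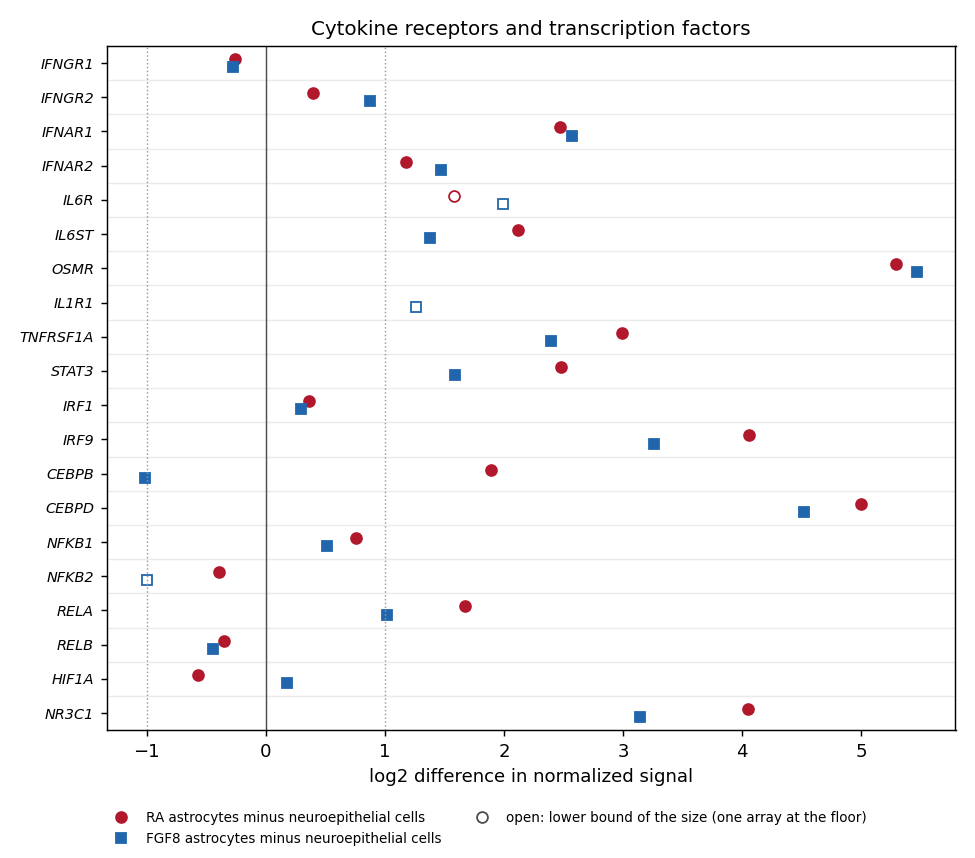
Log2 difference in normalized signal of 20 genes of cytokine and steroid receptors and transcription factors in RA astrocytes (circles) and FGF8 astrocytes (squares), each minus neuroepithelial cells, with dotted lines at 2-fold and open symbols for lower bounds. OSMR, CEBPD and IRF9 are high in both cultures, and CEBPB is higher in RA and lower, only just past 2-fold, in FGF8 astrocytes.

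The scaling of the arrays bears on the order of the astrocyte cultures. With the hybridisation controls set equal, a scaling chosen after seeing the data, the median of all genes was 1.18 lower in RA than in FGF8 astrocytes and 1.15 lower in RA astrocytes than in neuroepithelial cells. On that scale the RA minus FGF8 differences were 0.15 for C1R, 0.34 for C1S and 0.005 for CFI, all within 2-fold though above the median of all genes, while SERPING1 remained higher by 2.43. Against neuroepithelial cells C1R, C1S, CFI and CLU stayed higher in RA astrocytes on that scale, by 2.22, 4.53, at least 5.97 and 2.92, and SERPING1 by 1.34.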

How the data were processed

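The deposited value table holds 1 linear signal intensity per probe set and array, as deposited by the authors. The trimmed mean of each array, without the lowest and highest 2%, was close to 150 (149.979, 149.981 and 149.982), so the arrays had been scaled before deposit. RNA was extracted with Trizol, per the labels' protocols, and how probes were summarised is not given in the sources read. Intensities of 54613 non-control probe sets were quantile-normalized and brought to log2 with Python 3.11.15, numpy 2.4.6 and pandas 2.3.3, and tested on simulated data. The floor was the median of all values (log2 4.72). The probe annotation gave 1 symbol to 41091 probe sets, several to 1801 and none to 11721, and only the first were used. The brightest probe set on average stood for each gene, and cross-hybridising ones served only where the gene had no other.

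The members, lists and rules were chosen with earlier results of these data known. Named were all members, up to 4 other complement genes and up to 3 receptor and factor genes each way per comparison with the largest differences past 2-fold, the 3 genes nearest to each member past 4-fold in an astrocyte culture, and a few markers. Genes at or near the floor, those of the chromosome 1 row and those within 2-fold were named besides these after their values were seen. Promoters came from RefSeq (GRCh38.p14). Other scalings, floors, probe set rules and fold thresholds were tried. With 1 array per group, the number of arrays limits the precision and there are no p-values.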

Additional observations from a re-analysis of the deposited data

Results flagged for a closer look

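SERPING1 and CEBPB lay on opposite sides of the neuroepithelial array in the astrocyte cultures. SERPING1 was 2.67 higher on the log2 scale in RA astrocytes and at -0.93 in FGF8 astrocytes, a difference of 3.60 between them. CEBPB was 1.89 higher in RA astrocytes and at -1.01, only just past 2-fold, in FGF8 astrocytes, a difference of 2.91. Each value is 1 array against the same neuroepithelial array, and the difference between the cultures was not tested.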

How the results depend on the processing

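No paired analysis was possible because each group had 1 array, and for the same reason no replicate could be left out. Under other settings 169 member differences kept their direction and side of 2-fold, 8 fell within 2-fold, 10 passed it, 2 moved and 1 reversed: CD59 in RA minus FGF8 astrocytes was -1.05 with the hybridisation controls set equal, a scaling chosen after seeing the data, against 0.10. This tally is no measure of stability, as some settings could not change a value. SERPING1 has 1 probe set and was above every floor, so the floor and probe set settings left it unchanged. Differences with both arrays at the floor, such as those of C3 with the floor at the 70th percentile, are not in the tally. Values below are given for RA minus neuroepithelial (the first comparison), FGF8 minus neuroepithelial (the second) and RA minus FGF8 (the third). The cause of these changes was not tested, beyond what each setting does by construction.

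At 1.5-fold, 7136 of 13339, 5600 of 13004 and 4675 of 12958 genes were called either way, against 4366, 2998 and 2273 at 2-fold. There 2 of 9, 2 of 8 and 1 of 8 members were lower. Of other complement genes 2 of 12 were lower in the first comparison, and 10 of 20 receptor and factor genes were called in the third. At 4-fold, 1598, 939 and 667 of the same genes were called. In the third 1 of 8 members and 1 of 12 other complement genes were higher, and in the second 0 of 9 other complement genes. Of 20 receptor and factor genes, 6 and 1 were called in the second and the third. With the floor at the 30th percentile, 6277 of 17094, 4533 of 16850 and 3943 of 16855 genes were called. Of other complement genes 9 of 28 and 8 of 29 were higher in the first and second. In both the second and the third 2 were lower, and their median in the second was 0.26. With the floor at the 70th percentile, 2924 of 9961, 1833 of 9628 and 1387 of 9634 genes were called. In the first and second 0 of 8 members were lower, and the members' median in the second was 1.13. Of other complement genes 3 of 6 and 1 of 4 were higher in the first and second. Their medians were -0.17 in the second and 1.20 in the third. In the third 1 of 16 receptor and factor genes was called. With no floor, 9150, 7457 and 6814 of 19775 genes were called, and differences between signals of a few units count among them. The members' medians were 3.69 and 1.28 in the first and second. Of 46 other complement genes 20, 17 and 10 were higher and 6, 5 and 8 lower. In the third 4 of 21 receptor and factor genes were called. With the mean of all probe sets, 3740 of 12007 and 2435 of 11710 genes were called in the first and second. There 2 of 9 members were lower in the first. Of other complement genes, 3 of 8 and 1 of 5 were higher in the first and second, with a median of -0.026 in the second. Of receptor and factor genes, 9 of 19 were called in the second with a median of 0.73. With only gene-specific probe sets, which C1R and CD46 lack, 3488 of 10665 and 2420 of 10382 genes were called in the first and second. On these, 3 of 6 members compared were higher in the second with a median of 0.71. There 0 other complement genes were lower in the first and second, and their median in the first was 1.79. The number of genes compared changed with the setting, so these counts are not of the same set. In the main run 12, 9 and 12 other complement genes were compared. With the floor at the 30th percentile it was 28, 29 and 32, at the 70th percentile 6, 4 and 5, and with no floor 46. With the mean of all probe sets it was 8, 5 and 7, and with gene-specific ones 8, 6 and 9.

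With array medians set equal, the median of all genes moved to 0.35, 0.42 and -0.04, and 70.8%, 75.8% and 49.9% of called genes were higher, against 55.4%, 55.6% and 55.2%. With the hybridisation controls set equal those shares were 7.02%, 39.2% and 3.64%.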
